A study of Homo sapiens with 12 samples.

Results

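The 7 keratin genes KRT8, KRT18, KRT19, KRT10, KRT13, KRT23 and KRT80 were examined by ribosome profiling of HCT116, a cell line from a human colorectal carcinoma. They are 7 of the 44 keratin genes and of the 15798 genes in the count table. The genes were picked by symbol, and the distinction between induced and constitutive keratins rests on their changes in input and footprints, so those changes are given below as a description without a test. All cells were treated for 24 h, either with 100 nM trametinib, an inhibitor of the kinases MEK1/2, or with the solvent DMSO. From each treatment, 3 input libraries (fragmented mRNA) and 3 footprint libraries (mRNA pieces protected by a ribosome) were available, 12 libraries in 4 groups. HCT116 is 1 cell line, so the values describe that line alone.

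Keratins are the intermediate filament proteins of epithelial cells. A filament is built from pairs of 1 type I and 1 type II keratin, so the cell needs both types in matching amounts. KRT8 (type II) with KRT18 and KRT19 (type I) forms the network of simple epithelia such as the gut lining. KRT13 (type I) is known from the upper layers of moist stratified epithelia such as those of mouth and oesophagus, where KRT4 is its partner. KRT10 (type I) is known from the upper epidermis, where KRT1 is its partner. KRT80 (type II) is expressed in several epithelia and lies near cell borders, and KRT23 is a further type I keratin. On GRCh38, KRT80 (chr12:52168996-52192014, minus strand) and KRT8 lie in the type II cluster on chromosome 12, with KRT18 beside KRT8. KRT13 (chr17:41500981-41505705, minus strand), KRT10, KRT19 and KRT23 lie in the type I cluster on chromosome 17.

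Keratin genes resemble each other in the part that encodes the central rod of the protein, and the authors counted only reads that matched the reading frame of a single gene symbol. The longest stretch that KRT13 shares with another keratin is shown, for 1 of the strongly changed members, because a read inside it could not be counted for either gene. Capitals mark the identical run, and lower case marks 12 flanking bases on each side. The run covers 66 coding bases of KRT13 (chr17:41503416-41503680, minus strand) and KRT15 (chr17:41516937-41517120, minus strand), each across the junction of exons 2 and 3 of 8.
KRT13: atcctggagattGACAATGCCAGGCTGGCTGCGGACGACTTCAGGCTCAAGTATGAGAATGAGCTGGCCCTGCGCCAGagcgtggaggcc
KRT15: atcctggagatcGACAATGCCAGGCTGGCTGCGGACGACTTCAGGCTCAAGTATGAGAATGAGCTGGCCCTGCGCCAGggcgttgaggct
Of all 30-base windows of the coding sequence, 3.54% in KRT80 and 3.72% in KRT13 recurred exactly in the reading frame of another gene. For KRT8, KRT19 and KRT18 the shares were 3.94%, 1.71% and 0%. In any other transcript of the annotation, pseudogenes included, the shares were 73.9% for KRT8 and 73.8% for KRT18, against 14.9% for KRT19 and 0% for KRT23. Within 2 mismatches, 30.3% of the KRT13 windows matched another keratin, mostly KRT15 (21.8%). For KRT80 the share was 8.59%, mostly KRT8 (8.36%), with which KRT80 has an identical run of 65 coding bases. Whether reads of the far more abundant KRT8 entered the KRT80 counts was not tested. How reads matching pseudogenes affected the KRT8 and KRT18 counts was not tested.

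The libraries held 2276693 to 2845568 counted input reads and 10127477 to 19181588 footprints. The treatment labels were checked on DUSP6, a gene induced by ERK, whose input counts were 748, 628 and 515 in DMSO and 5, 3 and 0 in trametinib. Of 8 epithelial marker genes, 7 or 8 reached 10 counts in every library. Their summed normalized level was 5244 to 6230 in DMSO input and 10763 to 11405 in trametinib input. In footprints it was 7576 to 10686 and 14971 to 15871. The sum was thus higher in trametinib, and ELF3 rose most in it, from 690 to 4110 mean normalized input counts. EPCAM went from 1430 to 1714 with overlapping groups. CLDN7 alone had a lower mean in trametinib input, 308 against 481 in DMSO, also with overlap. The part of these markers in the results was not tested. Markers of basal keratinocytes summed to at most 12.9 normalized counts. The erythroid marker HBB and the fibroblast marker LUM were absent from the counted genes, so erythroid cells could not be checked. Among the 7 markers present of fibroblasts, leukocytes and endothelial cells, only COL1A1 and, in trametinib, COL3A1 reached 10 counts. These other-cell markers summed to 38.3 to 84.3 normalized counts in DMSO and 122 to 192 in trametinib, and COL1A2, DCN, PTPRC, PECAM1 and CDH5 had at most 3 counts in any library. DMSO replicate 1 stood apart in input and footprints alike. Its normalized counts were 5.88-fold (input) and 8.75-fold (footprint) the mean of DMSO replicates 2 and 3 for KRT80, 4.97-fold and 5.03-fold for KRT7, and 1.74-fold and 1.61-fold for KRT18. For KRT13 the ratios were 0.846 and 1.33. Results that rest on this replicate are therefore given with and without it.

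KRT13 went from a trace in DMSO to a clear signal in trametinib. Its raw input counts were 3, 6 and 1 in the DMSO libraries and 33, 85 and 97 in the trametinib libraries. In footprints, 23, 11 and 15 counts stood against 529, 701 and 565. The groups did not overlap in either assay, and the lowest trametinib library was trametinib replicate 1 in both. Divided by a size factor per library, input was 7.26 ± 5.35 (SD, n = 3) and 183 ± 90.6 normalized counts, and footprints were 7.06 ± 1.47 and 240 ± 67.6. The log2 change was 4.58 (SE 0.54) in input and 5.08 (SE 0.30) in footprints. It was 4.49 and 5.28 without DMSO replicate 1, and the input change was 5.26 (SE 0.72) without DMSO replicate 2. Since the DMSO input total was only 10 counts over 3 libraries, the footprint value is the better determined. Whether more cells carried KRT13 mRNA or each cell carried more cannot be told apart in these bulk libraries. KRT4, the usual type II partner of KRT13 and named here after its values were seen, was also low. It had 0 counts in every DMSO footprint library and 5, 13 and 8 in trametinib.

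KRT80 was the other keratin with a large change. In input its normalized counts were 84.1, 21.6 and 7.02 in DMSO replicates 1 to 3 and 385, 389 and 401 in trametinib. In footprints they were 64.5, 8.47 and 6.27 against 274, 315 and 270. Every trametinib library lay above every DMSO library, and the trametinib libraries agreed closely while the DMSO libraries were spread over about an order of magnitude. The log2 change was 3.36 (SE 0.45) in input and 3.36 (SE 0.66) in footprints. Without DMSO replicate 1 it was 4.73 (SE 0.31) and 5.33 (SE 0.20), so the size of the KRT80 change depends on that replicate although its direction does not. With all libraries the KRT13 change was the larger in both assays. Without DMSO replicate 1, KRT13 was at 4.49 in input and 5.28 in footprints, so close to KRT80 that their order was not settled.

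KRT23 changed less and was already present in DMSO. Its normalized input counts were 218, 145 and 122 in DMSO and 363, 466 and 398 in trametinib. Its footprints were 185, 119 and 119 against 402, 414 and 398. The groups did not overlap, and the trametinib footprints had an SD of 8.20 (n = 3). The log2 change was 1.34 (SE 0.22) in input and 1.51 (SE 0.18) in footprints.

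KRT10 showed no increase. With 5, 8 and 7 input counts in DMSO and 3, 2 and 4 in trametinib, it failed the filter (a minimum of 10 counts in 3 or more of the input libraries) and was not tested. In normalized input counts, 14.8 ± 3.52 stood against 7.55 ± 2.58 (SD, n = 3), without overlap but on few reads. Its footprints were more numerous, with normalized counts of 117, 96.4 and 78.9 in DMSO and 77.4, 86.7 and 78.5 in trametinib, which overlapped. When genes were filtered on footprint counts instead, a choice made after seeing the data, its log2 footprint change was -0.28 (SE 0.17). KRT1, the epidermal partner of KRT10, had 1 count in 1 trametinib footprint library and 0 elsewhere.

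**Figure D1:**
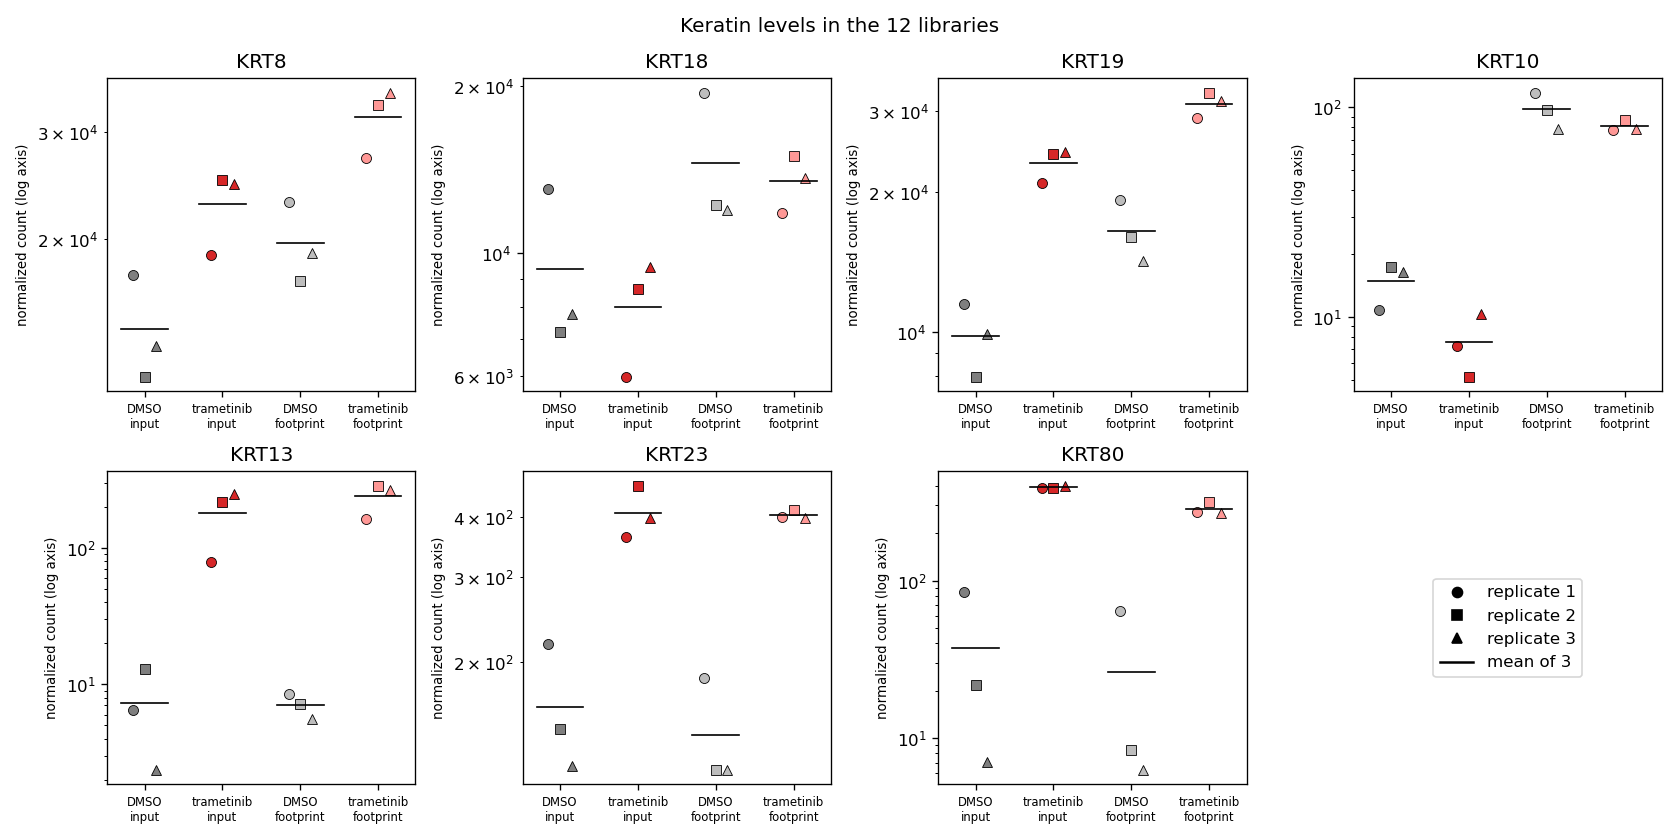
Normalized counts (log axis) of the 7 keratins in each of the 12 libraries, 1 panel per gene. Symbols are replicates 1 to 3 and lines are means of 3. For KRT13, KRT23 and KRT80 all trametinib libraries lie above all DMSO libraries, and the DMSO circles of KRT80 (84.1 and 64.5) lie far above the other DMSO libraries.

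Of KRT8, KRT18 and KRT19, the keratins labelled constitutive, KRT18 had overlapping groups, while KRT8 and KRT19 did not. The share of all genes without overlap was not counted, so a lack of overlap is given here as a description only. The normalized input counts of KRT18 were 13052, 7210 and 7773 in DMSO and 5973, 8610 and 9443 in trametinib, and its footprints were 19485, 12240 and 11948 against 11823, 14964 and 13685. The overlap was seen in both assays. The log2 change was -0.21 (SE 0.23) in input and -0.11 (SE 0.21) in footprints, and 0.11 (SE 0.17) and 0.17 (SE 0.12) without DMSO replicate 1. The sign thus turned with 1 replicate, and each value lay within 2 SE of 0.

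KRT8 and KRT19 were higher in trametinib. For KRT8, normalized input counts of 17438, 11874 and 13381 in DMSO stood against 18871, 25044 and 24662 in trametinib. Its footprints were 23034, 17096 and 18965 against 27146, 33140 and 34774. No library overlapped, although trametinib replicate 1 came close to DMSO replicate 1 in input, and the log2 change was 0.69 (SE 0.17) in both assays. For KRT19, normalized input counts were 11452, 7972 and 9883 in DMSO and 20895, 24169 and 24393 in trametinib. Its footprints were 19252, 16024 and 14183 against 28952, 32829 and 31440. The groups were well apart, with a log2 change of 1.25 (SE 0.16) in input and 0.91 (SE 0.15) in footprints. The input change of KRT19 was thus of the size of that of KRT23 (1.34), which is counted among the induced keratins. In footprints the KRT19 change was the smaller, at 0.91 against 1.51 for KRT23.

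**Figure D2:**
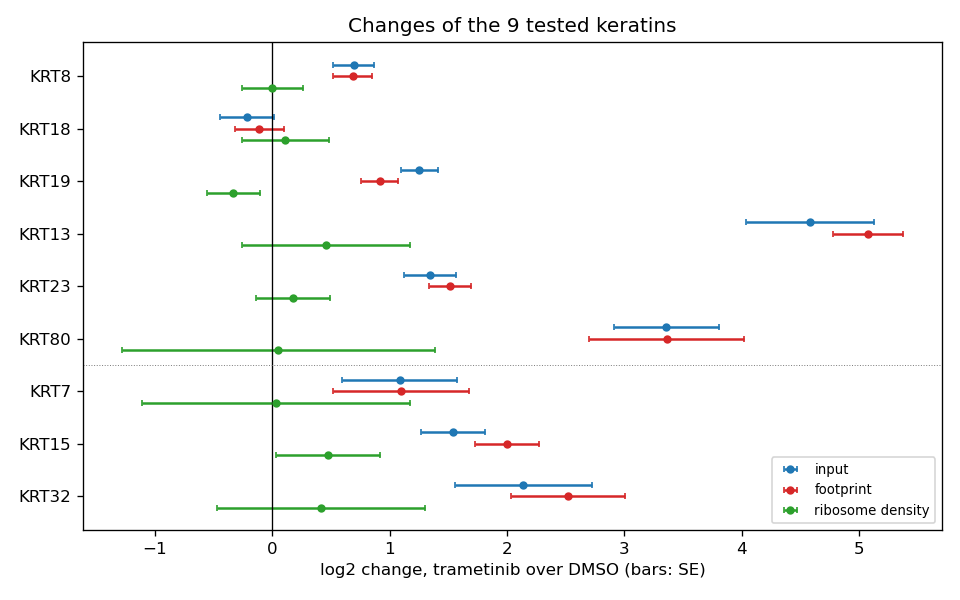
Log2 change of trametinib over DMSO for the 9 keratins that passed the filter, with SE as bars, in input, footprints and ribosome density. Members stand above the dotted line and KRT7, KRT15 and KRT32 below it. Input and footprint changes lie close together for each gene, at 4.58 and 5.08 for KRT13 and at -0.21 and -0.11 for KRT18, and the density values lie around 0 with wide bars for KRT80 and KRT7.

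The unequal changes of the abundant keratins shifted the composition of the type I side. Per coding base, KRT19 over KRT18 in input was 1.17 ± 0.213 in DMSO and 3.18 ± 0.513 in trametinib, and in footprints 1.25 ± 0.174 and 2.49 ± 0.138 (SD, n = 3), without overlap. KRT8 over KRT18 was 1.40 ± 0.182 against 2.58 ± 0.244 in input and 1.24 ± 0.180 against 2.09 ± 0.151 in footprints, also without overlap. The ratio of KRT8 to the sum of KRT18 and KRT19 did not follow. It was 0.643 ± 0.0292 and 0.617 ± 0.0269 in input and 0.549 ± 0.0621 and 0.601 ± 0.0461 in footprints, and the groups overlapped in both assays. These ratios are formed within a library and so do not depend on the scaling between libraries.

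**Figure D3:**
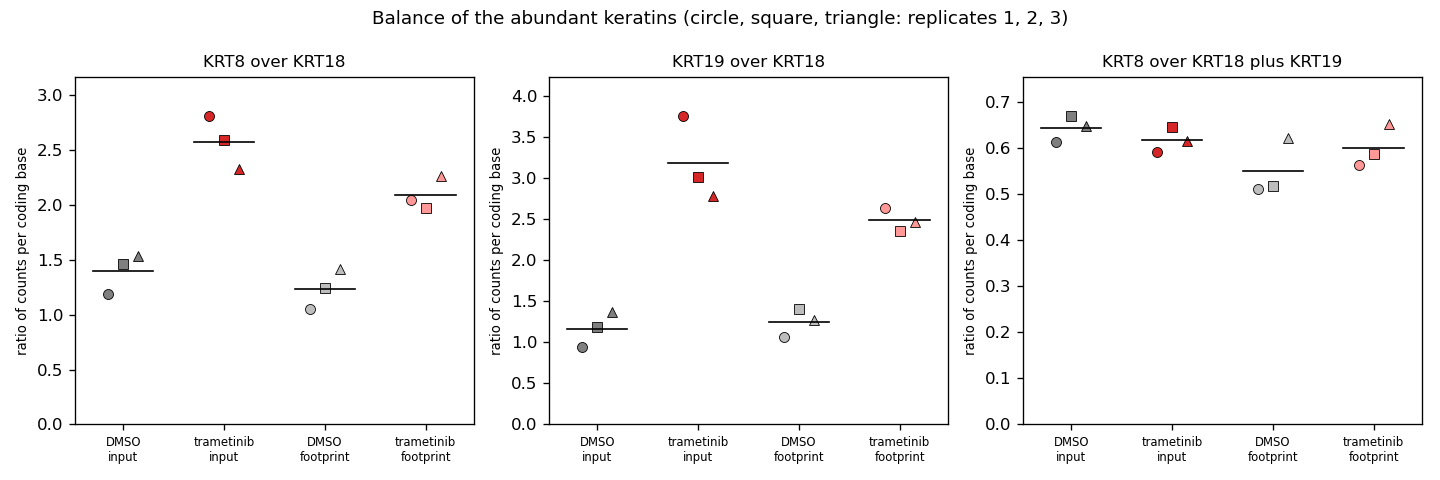
Ratios of counts per coding base between KRT8, KRT18 and KRT19 in each library, with lines for means of 3. KRT8 over KRT18 and KRT19 over KRT18 are higher in every trametinib library, with means of 2.58 and 3.18 in input, while KRT8 over the sum of both type I keratins overlaps between treatments.

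Per length, the induced keratins remained far below the abundant ones. In trametinib input, levels (counts per kb of coding sequence, scaled to 1000000 counted reads) averaged 3259 for KRT19, 2666 for KRT8 and 1049 for KRT18, then 54.6 for KRT23, 48.8 for KRT80, 22.5 for KRT13 and 0.727 for KRT10. The ranges of KRT19 and KRT8, and of KRT23 and KRT80, overlapped and did not separate these neighbours. In DMSO input the order was KRT8, KRT19 and KRT18 at 1650, 1369 and 1214, with overlapping ranges, then KRT23 at 21.4, and KRT80, KRT10 and KRT13 at 4.58, 1.43 and 0.892, where KRT80 overlapped KRT10 and KRT10 overlapped KRT13. For every 1000 KRT8 counts per coding base there were 0.379 ± 0.0677 of KRT13 in DMSO footprints and 7.88 ± 1.45 in trametinib footprints (SD, n = 3). For KRT80 the values were 1.29 ± 1.47 and 9.74 ± 1.30.

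All 44 keratins together took 0.568% ± 0.115 of the input counts in DMSO and 0.941% ± 0.131 in trametinib, and 0.765% ± 0.141 and 1.31% ± 0.122 of the footprints (SD, n = 3). In each assay every trametinib library was higher. No test is given, since nearly all of these counts belong to the members. KRT8, KRT18 and KRT19 made up 96.9% to 99.2% of keratin counts in every library. Without these 3, the keratin share was 0.00818% and 0.0280% in input and 0.00762% and 0.0273% in footprints.

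Ribosome density, footprints relative to input, was compared to see whether translation of the keratin mRNAs changed beyond their abundance, relative to other mRNAs. The libraries were scaled, which removes a change in translation shared by all mRNAs. The paper reports that global translation fell in these cells under trametinib. Such a fall would not appear in the values below, so whether keratin translation per mRNA changed in absolute terms was not tested. Per dish, footprints over input of KRT8 were 1.32, 1.44 and 1.42 in DMSO and 1.44, 1.32 and 1.41 in trametinib. KRT80 gave 0.766, 0.392 and 0.892 against 0.711, 0.811 and 0.673, and KRT13 gave 1.31, 0.553 and 2.36 against 2.05, 1.32 and 1.08, with DMSO input counts of only 1 to 6. Treatments overlapped for these 3 genes and for KRT18 and KRT23. KRT19 was lower in trametinib without overlap, with 1.68, 2.01 and 1.44 against 1.39, 1.36 and 1.29. In the interaction model the log2 density change was -0.33 (SE 0.22) for KRT19, 0.00 (SE 0.26) for KRT8, 0.11 (SE 0.37) for KRT18, 0.17 (SE 0.32) for KRT23, 0.46 (SE 0.71) for KRT13 and 0.05 (SE 1.33) for KRT80. The KRT13 value was -0.27 without DMSO input replicate 2. DESeq2's likelihood ratio test called 0 of the members it gave a p for (0 at an unadjusted p under 0.05, and 0 with edgeR), where 0.328% of all genes were called higher and 1.40% lower. KRT80 received no p because DESeq2 set it aside for an outlying count. Its density value was -1.34 (SE 1.30) without the input library and 1.92 (SE 0.96) without the footprint library of DMSO replicate 1, and 0.59 (SE 0.52) without both. The SE of KRT13 and KRT80 are so wide that density changes of 2-fold would not have been detectable. On simulated counts, 36 of 100 genes changed 2-fold in density were recovered. Those genes were drawn from all count levels with the same fixed dispersion, so the share does not describe any single member. Whether a 2-fold change of the other members would have been called was not tested.

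**Figure D4:**
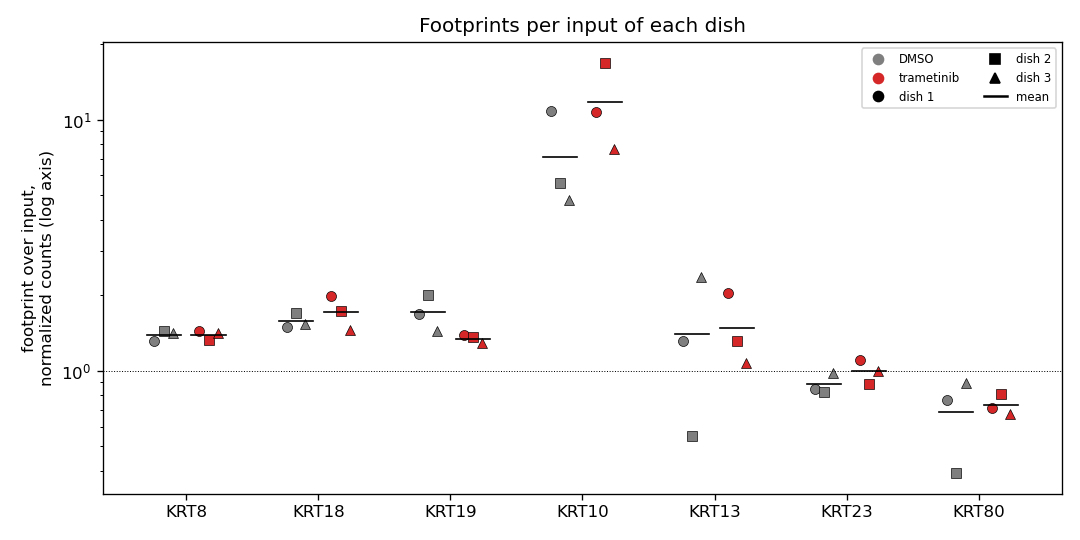
Footprint over input ratio of normalized counts (log axis) of each dish for the 7 keratins, grey for DMSO and red for trametinib, with lines for means of 3. KRT10 stands highest, at means of 7.08 and 11.7, on at most 8 input counts per library, and KRT80 lies below 1 in both treatments.

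Of the 44 keratins, 9 passed the filter, 6 of them members. Of the 3 tested keratins outside the selection, edgeR's quasi-likelihood test with Benjamini-Hochberg adjustment called KRT15 and KRT32 higher in both assays, where 15.4% of all 10663 genes were called higher in input (16.8% lower) and 23.9% in footprints (25.6% lower). KRT15, a type I keratin of basal epithelial cells, rose by 1.54 (SE 0.27, edgeR adjusted p = 0.000996) in input and by 2.00 (SE 0.28, edgeR adjusted p = 0.000457) in footprints. Its normalized footprints were 74.8, 39.7 and 49.0 in DMSO and 156, 277 and 230 in trametinib, without overlap. KRT32, known from hair, had input counts of 0, 4 and 5 in DMSO and 11, 12 and 13 in trametinib. It thus passed the filter only through its trametinib libraries and had to differ, so its call is no evidence of a change. Its footprint counts were 4, 1 and 6 against 18, 28 and 24. KRT13, too, passed only through its trametinib libraries. The DMSO input libraries of KRT80, with 39, 10 and 3 counts, did not meet the filter alone either. KRT7, a type II keratin of glandular epithelia, had changes of 1.08 (SE 0.49, edgeR adjusted p = 0.109) and 1.10 (SE 0.58, edgeR adjusted p = 0.144). Without DMSO replicate 1, KRT7 was called, at 2.30 (edgeR adjusted p = 2.15e-05) and 2.38 (edgeR adjusted p = 2.17e-06). Of the 34 other keratins that were not tested, 27 had at most 15 counts in every library.

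Of 24 genes listed that anchor or bind keratin filaments, 19 were tested. In input edgeR called 8 higher and 2 lower, beside 15.4% and 16.8% of all genes. In footprints it called 7 higher and 4 lower, beside 23.9% and 25.6% of all genes. The median log2 change was 0.39 in input and 0.06 in footprints, and without DMSO footprint replicate 3 the latter was -0.17, with 7 called lower. Without DMSO replicate 1 the medians were 0.45 in input and 0.38 in footprints. EPPK1 (epiplakin, a keratin-binding linker) rose by 1.29 (SE 0.19, edgeR adjusted p = 0.000254) in input. The desmosomal cadherins DSC3 and DSC2 rose by 1.15 (SE 0.18) and 0.91 (SE 0.20) in input and by 1.63 (SE 0.12) and 1.40 (SE 0.10) in footprints. PPL (periplakin) was called in input at 1.05 (SE 0.30, edgeR adjusted p = 0.0174) but not in footprints at 0.65 (SE 0.33, edgeR adjusted p = 0.129). The input call was lost without DMSO replicate 2, DMSO replicate 3 or trametinib replicate 2 (edgeR adjusted p = 0.0747, 0.0535 and 0.0795). PPL was 2.47-fold and 2.31-fold higher in DMSO replicate 1 than in the mean of replicates 2 and 3, and without that replicate PPL was also called higher in footprints (edgeR adjusted p = 2.56e-05). ITGA6, the integrin chain of hemidesmosomes that hold keratins at the cell base, fell by 1.97 (SE 0.20, edgeR adjusted p = 1.05e-05) in input and by 2.00 (SE 0.13, edgeR adjusted p = 5.87e-06) in footprints.

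Genes of cornified envelope and squamous differentiation were mostly too low to test. Of the genes listed, 25 were in the count table, and 5 of these were tested. In each assay edgeR called 1 higher and 0 lower, beside 15.4% and 16.8% of all genes in input and 23.9% and 25.6% in footprints. It was GRHL1, a transcription factor of epithelial differentiation, at 1.37 (SE 0.28, edgeR adjusted p = 0.00242) in input and 1.15 (SE 0.19) in footprints. The median was -0.42 in input and -0.27 in footprints, and 0.04 and -0.03 without DMSO replicate 1.

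Of the non-keratin intermediate filament genes listed, 13 were in the count table, and 9 of these were tested. In input edgeR called 1 higher and 3 lower, beside 15.4% and 16.8% of all genes, and in footprints 1 higher and 4 lower, beside 23.9% and 25.6%. The medians were -0.32 and -0.999, and -0.005 and -0.38 without DMSO replicate 1. SYNM (synemin) rose by 3.10 (SE 0.40, edgeR adjusted p = 9.15e-05) in input. Its input counts were 2, 10 and 13 in DMSO and 58, 80 and 53 in trametinib, so the DMSO libraries alone did not meet the filter. Its footprint counts were 31, 25 and 35 against 275, 173 and 185. VIM, the filament protein of mesenchymal cells, had input counts of 20, 27 and 16 in DMSO and 2, 7 and 4 in trametinib, so it passed the filter only through its DMSO libraries and its call is no evidence of a change. Its footprint counts were 169, 99 and 139 against 86, 75 and 62. The nuclear lamins LMNB1 and LMNB2 fell by 2.39 (SE 0.18) and 1.05 (SE 0.20) in input.

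The genes most like KRT13 over the 12 libraries, among 8928 genes with a mean of at least 50 normalized footprints, were CLIC3, CNTN1, TP53I3, DTX3L and IFIT2, with Pearson r of log2(normalized count + 1) from 0.990 to 0.980. CLIC3 went from 33.1 to 240 normalized input counts. Those most like KRT80 were LAMB2, FAM83B, APOL6, RGS6 and PCDH1, with r from 0.984 to 0.963. LAMB2 went from 839 to 3053. Those most like KRT8 were GDA, HMOX1, SP100, PLEKHB1 and IRF1, with r from 0.964 to 0.955. The 12 points share treatment, assay and replicate, so these values describe likeness only.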

How the data were processed

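Input and footprint libraries of HCT116 cells were analysed, 3 per group. Per the study's methods, footprints came from the monosomal gradient fraction after cycloheximide, and input from the same lysate, called a dish here. The authors removed rRNA and tRNA reads with Bowtie 1.2.2, mapped to the Gencode V38 basic transcripts and deposited whole-number counts of reads of 25 to 35 bases in the reading frames of a single gene symbol. Not used were the authors' fold changes and adjusted p-values (DESeq2 1.46.0) and 12 columns of their normalized counts.

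The counts were tested with edgeR 4.0.16 (quasi-likelihood, TMM) in the 6 libraries of each assay, and ribosome density with a likelihood ratio test in DESeq2 1.42.0 (interaction of assay and treatment, 12 libraries, independent filtering off), in R 4.3.3. The filter kept 10663 genes that reached 10 counts in 3 or more of the input libraries. Genes were called at a Benjamini-Hochberg adjusted p under 0.05. Log2 changes are trametinib over DMSO, and the edgeR SE is the absolute change over the square root of F. Scaling hides a change common to all mRNAs. On simulated counts of 10663 genes, 65 of 100 genes changed 2-fold were recovered in input, 81 in footprints and 36 in density.

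Replicates were separate biological samples per the labels. Deviations from group means of input and footprint libraries with the same number had correlations of 0.816, 0.181 and 0.343 for the DMSO dishes and 0.141, 0.0803 and -0.122 for the trametinib dishes over 7669 genes. The pairing of a dish comes from the shared lysate in the study's methods, and the density model above has no term for it.

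Members and gene lists were chosen with earlier results of these data known. The text names the 7 members, other keratins called in a comparison, KRT7 as the remaining tested keratin, up to 5 called genes per list by input change, and DUSP6. Coordinates and coding sequences came from Gencode 44 on GRCh38, the build of the authors' annotation. Alternatives were other tools, scalings and filters, replicate blocks and leaving out each library. A further sequence is not reported here.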

Additional observations from a re-analysis of the deposited data

How the results depend on the processing

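Of 278 values of the members under alternatives, 273 moved by less than the replicate spread, and none that was called changed sign. This spread is wide for KRT80, whose density value of -1.34 without DMSO input replicate 1 is among the 273. The 5 that moved were KRT80 without DMSO replicate 1 (input 4.73, footprint 5.33, density 1.92), KRT23 in footprints without it (1.77) and KRT19 in footprints scaled by library totals (1.09). Library totals gave 3577 higher and 1944 lower genes in footprints, 64.8% of the calls higher against 48.3% with TMM, because the median of all genes moved to 0.16. Over all genes, density calls depended most on the processing. edgeR's quasi-likelihood test gave 10 higher and 87 lower genes in place of 35 and 149, and leaving out 1 library gave 7 (without trametinib input replicate 2) to 38 higher and 111 to 182 lower. Without trametinib input replicate 2, 1069 genes were higher in input (range over libraries left out 1069 to 1767) in place of 1641. Without a filter on low counts, 12 of 43 keratins were called higher in footprints, beside 2965 higher and 2965 lower of all 15406 genes. With the filter it was 7 of 9, beside 23.9% and 25.6% of all genes. In both settings 5 of the called keratins were members, chosen with such changes known, so these counts are a description only. The replicate block on number gave 1959 higher and 2053 lower calls for input, and 2559 and 2725 for footprints. With the replicate block over all libraries, 21 were higher in density, and with a block per dish 24 higher and 163 lower. The block on number changed no call of a member, but KRT7 was called in input (adjusted p = 0.0125). Deviations of equal numbers across treatments correlated at 0.0484 to 0.334, and the labels give no shared day. For KRT7, called in input also by limma-trend (adjusted p = 0.0389), and for PPL, not called in input without DMSO replicate 2, DMSO replicate 3 or trametinib replicate 2 (adjusted p = 0.0747, 0.0535 and 0.0795), the call depends on the setting, and the cause was not tested. Input depth limits KRT13, with 1 to 6 counts per DMSO library, and KRT10, with 2 to 8 per library, while the KRT80 change is limited by the spread that DMSO replicate 1 brings.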

Other observations

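Trametinib footprint replicate 2 held 12, 51 and 33 counts of S100A7, S100A8 and S100A9, calcium-binding proteins of squamous and myeloid cells, while the other libraries held at most 2 of any of them. KRT13 in that library was at 288 normalized counts, beside 269 and 163 in the other trametinib footprint libraries.

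In DMSO replicate 1, several keratins with low counts stood above the other DMSO replicates in footprints. KRT16 had 51 counts there and 6 in each of the others, KRT83 had 19 against 1 and 1, and KRT86 had 23 against 0 and 0. CSTA, a protease inhibitor of the squamous list, was 5.05-fold higher in footprints, and CDH1 (E-cadherin) was 2.17-fold higher.

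KRT20, the keratin of differentiated intestinal cells, was at 25.7 ± 2.20 normalized footprints in DMSO and 27.8 ± 3.47 in trametinib (SD, n = 3), and the groups overlapped.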
